A study of Mus musculus with 207 samples.

Results

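The genes described here encode the proteasome and its helpers. They were taken as the protein-coding rows of the expression table whose mouse symbol starts with Psma, Psmb, Psmc, Psmd, Psme, Psmf or Psmg followed by a digit, pseudogene symbols left out, and they number 50 of 44448 rows, or of the 21253 protein-coding rows with a symbol. To compare ages, expression was measured in 69 islet cells of male mice aged 26 months (old) and 138 islet cells of male mice aged 3 months (young). The cells were caught singly on a microfluidic chip, where their RNA was copied and amplified, and their values were deposited as TPM, a transcript level corrected for gene length and for the cell's total. All are labelled as beta cells, and no strain, genotype, treatment or animal is named for any of them. Cells are not replicates, so each age was treated as a single sample, and the ages were set side by side without a test. Error values are SDs between cells.

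The proteasome is the large protease of cytosol and nucleus that destroys proteins marked with ubiquitin chains. Its barrel, the 20S core, is built of alpha rings that form the gate and beta rings that hold the cutting sites, and its cap, the 19S particle, has a base of ATPases that unfold the marked protein and a lid that removes the ubiquitin. Beta cells make large amounts of proinsulin, and misfolded proinsulin is drawn out of the endoplasmic reticulum and handed to the proteasome. Under interferon-gamma, cells replace the cutting subunits by inducible ones to form the immunoproteasome, which is known for making peptides for MHC class I molecules.

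The beta cell label was checked against marker genes. The 8 beta cell markers, among them both insulin genes, summed to between 314709 and 749797 TPM in old cells and between 158717 and 811244 TPM in young cells. The 8 macrophage markers had a median sum of 0.371 TPM in old cells and 0.510 TPM in young cells, but reached 100 TPM in 1 old and 13 young cells. The T cell receptor genes Cd3e, Cd3g and Trbc2 were listed at 0 in all cells. Mean sums of the alpha, delta, pancreatic polypeptide and ductal cell markers were 993, 249, 183 and 365 TPM in old cells. In young cells they were 1003, 157, 67.0 and 123 TPM. Endothelial, acinar and stellate sums averaged 13.3, 1.89 and 0.0283 TPM in old and 0.672, 0.104 and 1.53 TPM in young cells. A hormone of another islet cell type reached TPM 1000 in 7 old and 0 young cells. The cell numbers in the titles also fall into 8 runs of different technical character, whose boundaries come from an earlier look at these data and not from the labels. By the level of mitochondrial rRNA and tRNA the runs are of 2 kinds, a low kind with 40 old cells (159 to 190 and 200 to 207) and 54 young cells (1 to 39 and 40 to 54), and a high kind with 29 old cells (139 to 158 and 191 to 199) and 84 young cells (55 to 86 and 87 to 138). No run holds both ages, so run and age cannot be told apart. Differences within each kind are given for the sums, for the proteasome genes described in full and wherever a gene's kinds differ in sign. The median old cell had 4078 genes detected, which means at TPM 1 or above, against 4291.5 in the median young cell. Run medians lay between 3554 and 4570.5 in old runs. In young runs they lay between 2320 (cells 40 to 54) and 5104.5 (cells 87 to 138).

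Proteasome transcripts as a whole stood at nearly the same level at both ages. The 31 core, base and lid genes summed to 2792 ± 1688 TPM in old cells (n = 69) and 2730 ± 1488 TPM in young cells (n = 138), or 0.279% and 0.273% of a cell's TPM. The lowest, median and highest sums were 534, 2514 and 8521 TPM in old cells and 216, 2470 and 7590 TPM in young cells, so the ages overlapped over nearly their whole range. The log2 ratio of old over young, taken here and below as log2 of (mean TPM + 1) over (mean TPM + 1), was 0.03 in all cells, -0.09 among low-kind and 0.00391 among high-kind cells. Runs of the same age lay further apart than the ages. The mean sum lay between 1837 and 3348 TPM in the 4 old runs and between 1755 and 3824 TPM in the 4 young runs.

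Genes of the set passed 1.5-fold between the ages no more often than genes overall did. Mean TPM reached 1 at one age or both for 48 of the proteasome genes. Of these, 7 (14.6%) were higher in old cells by 1.5-fold or more, against a background of 16.8% of the 12155 genes at that level. Another 9 (18.8%) were lower in old cells by 1.5-fold or more, against 26.4% of all genes. Of the 14 core, 9 base and 8 lid genes, 0, 1 and 0 were higher and 2, 0 and 3 were lower. The other 32 of the 48 lay within 1.5-fold, and the median ratio was 0.16 on the log2 scale against -0.10 over all genes. That median depended on the scale: taken as the difference of mean log2(TPM + 1), 12 of the 48 lay above 0 and 36 below, with a median of -0.15, against -0.09 over all genes. The sign on that scale was opposite to that of the ratio of means for 19 of the 48. The kinds of runs often went against each other, with opposite signs for 22 of the 48 genes. In the low kind, 10 of 47 measured genes were higher and 14 lower in old cells by 1.5-fold, against 23.8% and 34.5% of all genes. In the high kind, 9 of 47 were higher and 6 lower, against 21.9% and 32.8%. The sign was the same in all cells and in both kinds for 25 genes, 12 above and 13 below 0. Psmb7 was the only 1 of the 48 whose 4 young run means (51.8 to 63.5 TPM) all lay above its 4 old run means (4.31 to 44.0 TPM), which 1.56% of all genes did. Without the highest cell of each run these ranges of Psmb7 overlapped, with 1.76 to 35.9 TPM in old runs and 17.9 to 51.2 TPM in young runs. None of the 48 had all old run means above all young ones, which 0.452% of all genes did.

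**Figure D1:**
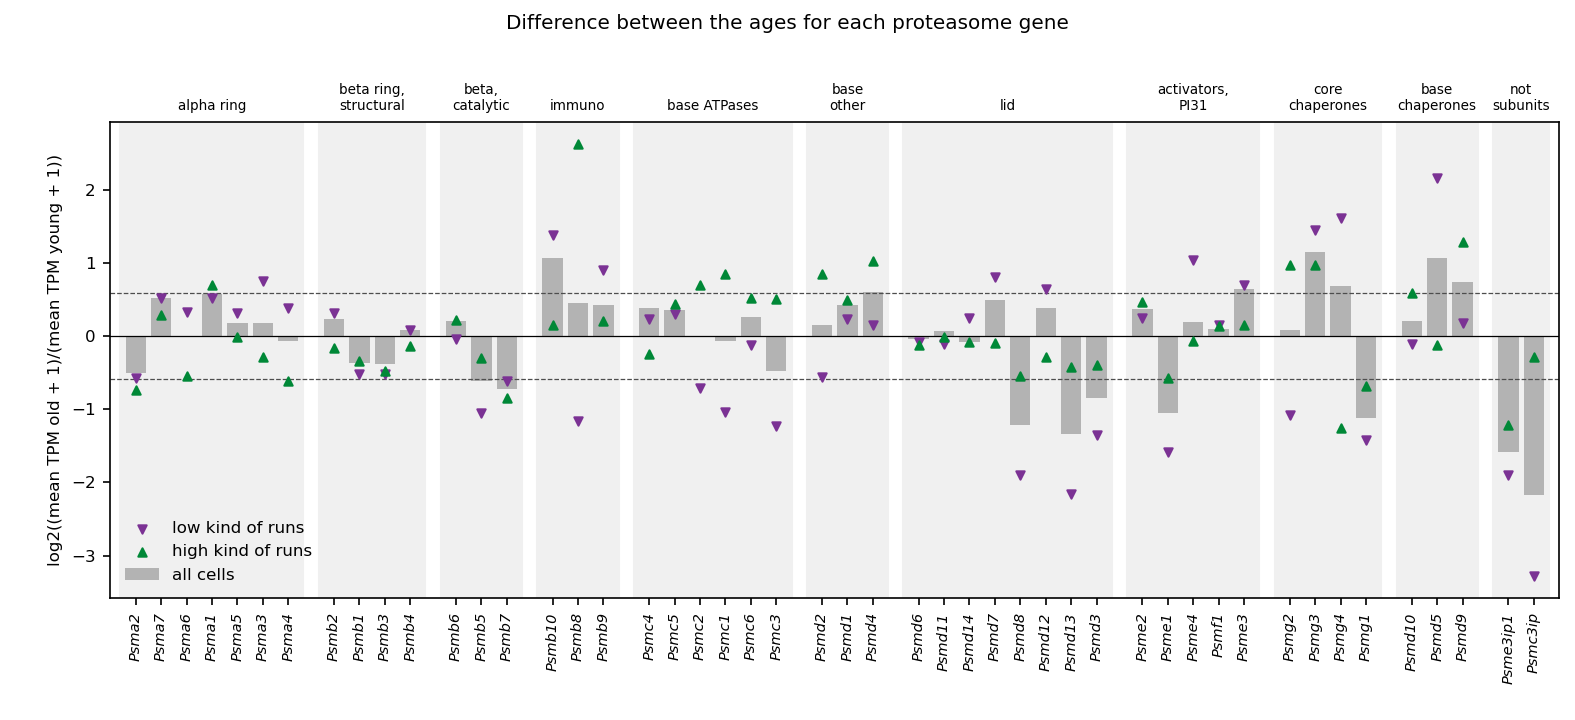
Log2 ratio of mean TPM + 1 in old over young cells for each of the 48 measured genes, grouped by role. Grey bars show all cells, purple and green triangles the low and high kinds of runs, and dashed lines mark 1.5-fold. Most bars lie between the dashed lines, and the triangles of a gene often stand on opposite sides of 0.

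The 20S core was the most abundant part. Its 14 genes summed to 1812 ± 1137 TPM in old cells and 1801 ± 1035 TPM in young cells, with a lowest, median and highest cell of 258, 1609 and 6521 TPM in old and 38.3, 1644 and 5718 TPM in young. The log2 ratio was 0.01, or -0.01 among low-kind and -0.16 among high-kind cells. Over all cells none of the 14 genes was higher in old cells by 1.5-fold (16.8% of all genes), and 2 of them, Psmb5 and Psmb7, were lower by that much (26.4% of all genes). In the low kind 1 was higher and 2 were lower, against 23.8% and 34.5% of all genes. In the high kind 1 was higher and 3 were lower, against 21.9% and 32.8% of all genes. Mean levels ran from 34.0 TPM (Psmb7) to 264 TPM (Psmb2) in old cells and from 56.7 TPM (Psmb7) to 225 TPM (Psmb2) in young cells, although each core particle holds these subunits in equal number.

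The alpha ring, the outer ring whose N-terminal tails close the gate of the barrel, had 7 genes, all within 1.5-fold over all cells. Psma2, the highest of them over all cells, had a lowest, median and highest value of 0, 36.1 and 1108 TPM in old cells and 0, 67.6 and 1785 TPM in young cells. Its means were 127 ± 207 and 181 ± 264 TPM, a log2 ratio of -0.50 that lay below 0 in both kinds of runs (-0.58 low, -0.74 high). Psma7 went the other way, with a median of 141 TPM in old and 71.6 TPM in young cells and a log2 ratio of 0.52 (0.51 low, 0.29 high). Psma1 had a median of only 6.40 TPM in old cells against 23.2 TPM in young cells, while its means, 153 ± 318 and 102 ± 173 TPM, gave a log2 ratio of 0.58. The difference of its mean log2(TPM + 1) was -0.15, and 16.7% of its old total came from 1 cell. Psma4, the lowest of the ring, stood at 58.8 ± 118 TPM in old and 61.8 ± 111 TPM in young cells (-0.07), with 0.38 in the low and -0.62 in the high kind. Psma3, Psma5 and Psma6 differed by 0.18, 0.17 and 0.00016 on the log2 scale, above 0 in the low kind (0.76, 0.31 and 0.33) and below 0 in the high kind (-0.29, -0.01 and -0.54).

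In the beta rings, the 4 structural subunits that carry no cutting site were also within 1.5-fold. Psmb2, the most abundant proteasome gene of all, stood at 264 ± 335 TPM in old cells (median 133, highest 1742) and 225 ± 302 TPM in young cells (median 100.2, highest 1682), a log2 ratio of 0.23 (0.31 low, -0.17 high). Psmb4 stood at 72.5 ± 120 TPM in old and 68.5 ± 142 TPM in young cells (0.08 in all cells and in the low kind, -0.14 in the high kind). Psmb1 and Psmb3 were at -0.37 and -0.38, below 0 in both kinds of runs.

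The 3 constitutive cutting subunits differed in direction. Psmb6 (beta1, caspase-like activity) had a lowest, median and highest value of 0, 152 and 1166 TPM in old cells and 0, 99.3 and 2031 TPM in young cells, with means of 214 ± 246 and 186 ± 264 TPM (log2 ratio 0.21, or -0.04 low and 0.22 high). Psmb5 (beta5, chymotrypsin-like activity) had 0, 4.25 and 545 TPM in old cells and 0, 16.5 and 1043 TPM in young cells, with means of 54.4 ± 109 and 84.3 ± 158 TPM. Psmb7 (beta2, trypsin-like activity) had 0, 2.87 and 354 TPM in old cells and 0, 12.6 and 701 TPM in young cells, with means of 34.0 ± 62.3 and 56.7 ± 111 TPM. By their medians, Psmb6 was higher and Psmb5 and Psmb7 were lower in old cells, while the ranges of the ages overlapped. The log2 ratio of Psmb5 was -0.62 (-1.05 low, -0.30 high), but 0.09 without young cells 1 to 39. The log2 ratio of Psmb7 was -0.72 (-0.61 low, -0.84 high). Psmb5 was detected in 59.4% of old cells (95% interval 46.9 to 71.1%, Clopper-Pearson) and 73.2% of young cells (65.0 to 80.4%), and Psmb7 in 62.3% and 65.2%. These intervals cover counting error only. Pseudogenes named after Psmb5, Psmb6, Psmb7 and Psma5 are annotated, 6 in all, so reads of these genes could be split with their copies.

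**Figure D2:**
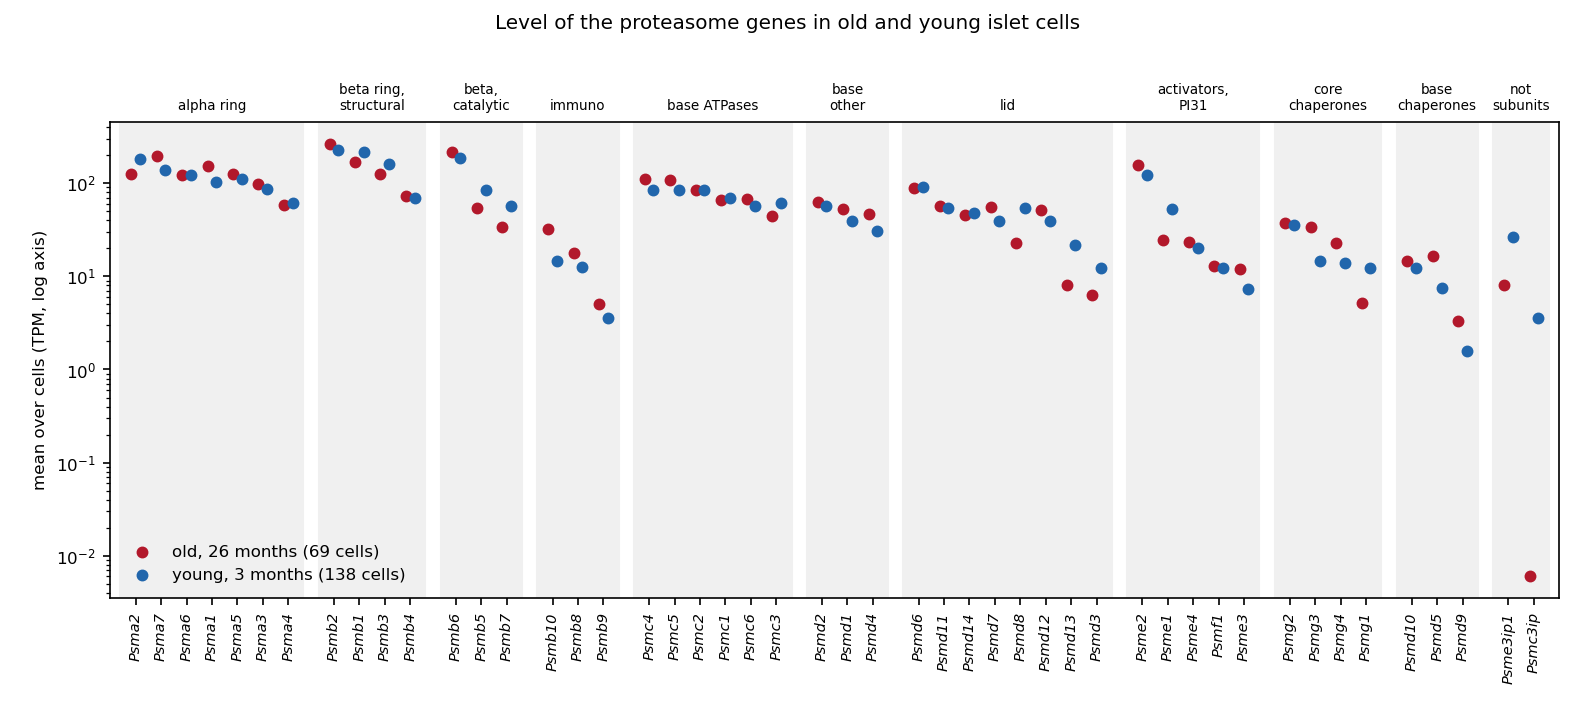
Mean TPM over all cells of each age, on a log axis, for the 48 measured genes by role, with old cells in red left of young cells in blue. The core genes lie between 34.0 and 264 TPM in old cells, the inducible subunits Psmb8, Psmb9 and Psmb10 between 5.04 and 32.0 TPM.

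The inducible subunits were scarce at both ages and more abundant in old cells. Psmb8, Psmb9 and Psmb10 replace Psmb5, Psmb6 and Psmb7 in the immunoproteasome. Together they summed to 54.9 ± 97.2 TPM in old cells and 31.0 ± 68.1 TPM in young cells, with a lowest, median and highest cell of 0, 4.88 and 398 TPM in old and 0, 0.618 and 473 TPM in young. The log2 ratio was 0.80, with 0.40 in the low and 1.09 in the high kind of runs. Of the 6 cutting subunits' mean TPM, the inducible ones made up 15.3% in old and 8.66% in young cells. That share was 14.8% against 9.45% among low-kind cells and 16.3% against 7.78% among high-kind cells. Over all alternative settings it stayed between 14.2 and 18.4% in old cells and between 7.78 and 9.71% in young cells. The means of the inducible sum in single runs did overlap, at 35.1 to 81.1 TPM in the 4 old runs and 6.44 to 53.0 TPM in the 4 young runs.

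Most cells held transcripts of 1 inducible subunit or of none. No inducible subunit was detected in 26 of 69 old cells (37.7%, 26.3 to 50.2%) and 77 of 138 young cells (55.8%, 47.1 to 64.2%). A single one was detected in 30 old and 48 young cells, 2 of them in 12 old and 11 young cells, and all 3 in 1 old and 2 young cells. The inducible sum exceeded the constitutive sum in 9 old cells (13.0%, 6.14 to 23.3%) and 7 young cells (5.07%, 2.06 to 10.2%). Cells without an inducible subunit also had fewer genes detected, a median of 3454.5 in old and 4006 in young, than cells with a single one, at 4288 in old and 4593 in young. The part of detection depth in these shares was not tested.

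**Figure D3:**
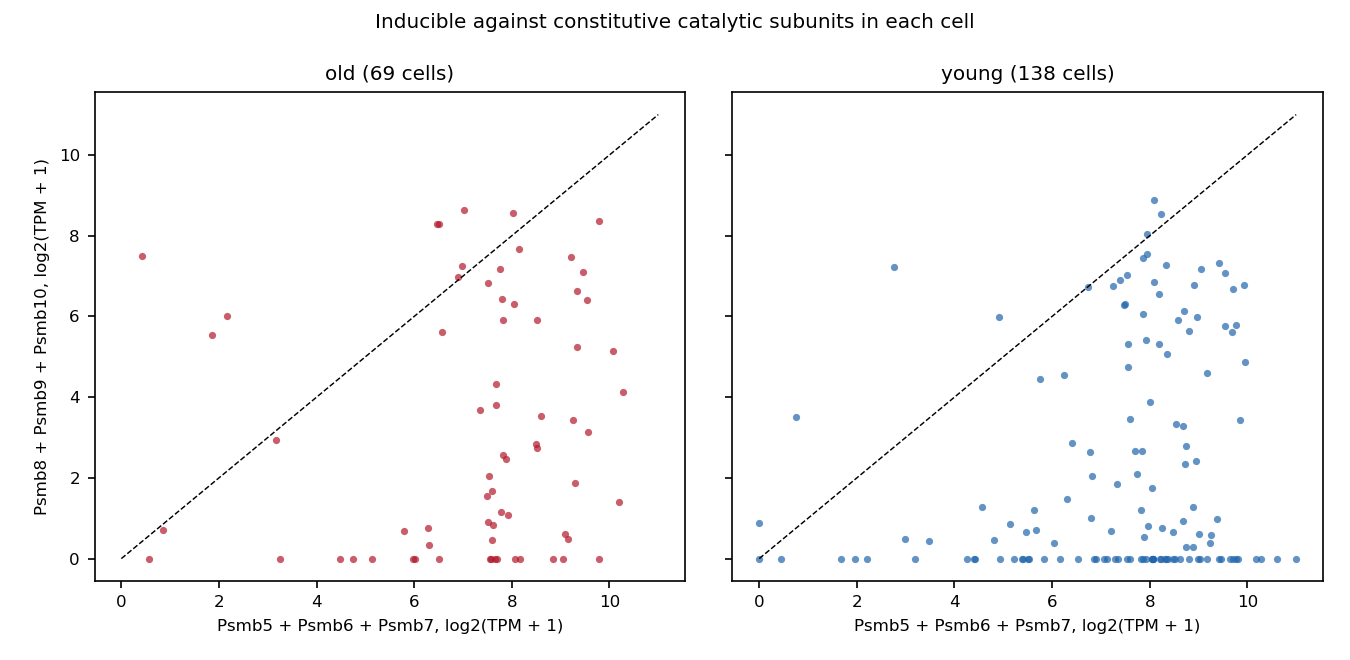
Summed Psmb8, Psmb9 and Psmb10 against summed Psmb5, Psmb6 and Psmb7 in each cell, both as log2(TPM + 1), old cells left and young cells right; the dashed line marks equal sums. Points above the line are the 9 old and 7 young cells with more inducible than constitutive transcript, and the points along the bottom have none.

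Over all cells Psmb10 (beta2i) carried most of the difference in the inducible sum, while in the high kind of runs Psmb8 differed more. Psmb10 had a median of 0 and a highest value of 379 TPM in old cells and a median of 0 and a highest value of 473 TPM in young cells, with means of 32.0 ± 72.6 and 14.8 ± 48.9 TPM. Its log2 ratio was 1.07, but 1.37 in the low and only 0.15 in the high kind of runs, where it averaged 15.3 TPM in old and 13.7 TPM in young cells. It was detected in 39.1% of old cells (27.6 to 51.6%) and 27.5% of young cells (20.3 to 35.8%). Its run means lay between 10.7 and 58.6 TPM in old runs and between 3.99 and 21.2 TPM in young runs. Without the highest cell of each run they lay between 0.0930 and 32.8 TPM in old runs and between 0.782 and 14.7 TPM in young runs. Psmb8 (beta5i) averaged 17.8 ± 50.6 TPM in old cells (median 0, highest 310) and 12.7 ± 45.8 TPM in young cells (median 0, highest 372), a log2 ratio of 0.46. Its kinds of runs went opposite ways, with -1.16 in the low and 2.62 in the high kind, where it averaged 26.4 TPM in old and 3.45 TPM in young cells. Among these, the 9 old cells 191 to 199 averaged 24.3 TPM of Psmb8 with their highest cell and 0.268 TPM without it, while old cells 139 to 158 averaged 27.3 and 12.4 TPM. Psmb9 (beta1i) was the rarest, at 5.04 ± 26.8 TPM in old cells (highest 180) and 3.53 ± 17.7 TPM in young cells (highest 119), and 51.8% of its old total came from 1 cell. Its log2 ratio was 0.42 (0.90 low, 0.21 high), and -0.09 without the highest cell of each age. Set against the partner each replaces, by mean TPM, Psmb10 made up 48.5% of Psmb10 and Psmb7 in old and 20.7% in young cells, with 55.4% against 23.0% in the low and 32.5% against 19.2% in the high kind. Counted by cells, Psmb10 exceeded Psmb7 in 30.4% of old and 25.4% of young cells. These shares were 35.0% against 25.9% in the low and 24.1% against 25.0% in the high kind. Psmb8 made up 24.6% of Psmb8 and Psmb5 in old and 13.1% in young cells, but the order differed by kind, with 16.4% in old against 18.0% in young cells of the low kind and 35.5% against 5.52% in the high kind. Psmb9 made up 2.30% of Psmb9 and Psmb6 in old and 1.86% in young cells.

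Macrophages express the immunoproteasome, so cells with macrophage transcripts were looked at apart, a choice made after seeing the data. The 1 old cell and 13 young cells with macrophage markers at 100 TPM or above held 0.969% of the inducible total of old cells and 17.3% of that of young cells. Without them the inducible share of the 6 cutting subunits was 15.6% in old and 8.28% in young cells. Interferon signalling and antigen presentation genes did not stand higher in old cells as a list. Of 18 such genes, 14 reached a mean TPM of 1, of which 1 (Tap1) was higher in old cells by 1.5-fold and 5 (Cd74, Ciita, Ifngr1, Ifngr2 and Irf9) were lower, against 16.8% and 26.4% of all genes, with a median of -0.35. Single cells set several of these values: 97.1% of the old total of Tap1, 99.3% of the young total of Ciita and 80.5% of the young total of Cd74 came from 1 cell each. The kinds differed. In the low kind 5 of 13 were higher and 4 lower, against 23.8% and 34.5% of all genes, with a median of -0.14, and -0.14 over all genes. In the high kind none of 13 was higher and 11 were lower, against 21.9% and 32.8% of all genes. The median there was -1.09, against -0.13 over all genes. Tap1 (1.20 low, -0.68 high), Cd74 (0.51 low, -6.94 high) and Irf9 (1.28 low, -2.50 high) differed in sign between the kinds. Irf1, a transcription factor that interferon induces, averaged 16.7 ± 60.6 TPM in old and 21.6 ± 55.8 TPM in young cells. B2m, the MHC class I light chain, averaged 203 ± 581 TPM in old and 225 ± 1008 TPM in young cells, with a log2 ratio of 0.61 in the low and -1.04 in the high kind. Psmb11, the thymus form of the beta5 subunit, reached TPM 1 in 0 of 69 old and 0 of 138 young cells. Taking a count of 0 to allow up to 3 cells, for counting error only, the share of cells at TPM 1 could be up to 4.35% in old and 2.17% in young cells. Psma8, the alpha subunit of sperm-forming cells, was listed at 0 in all cells.

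The stretches of DNA before these genes were looked up to show what the exchanged subunits carry there. Of the 50 genes, 42 had an entry among the RefSeq promoter windows of build GRCm38.p6, which run from 250 bases before to 50 after the start; Psma8, Psmb1, Psmb2, Psmb7, Psmc3, Psmd3, Psmd7 and Psmg2 are named only. Both strands were searched for TGACNNNGC (antioxidant response element, ARE, bound by the proteasome regulators Nfe2l1 and Nfe2l2), CCGGAAG (ETS factors), GAAA repeated after 2 free bases (interferon-stimulated response element, ISRE), TTCNNNGAA (gamma-activated site, GAS) and CCAAT. Below are the inducible Psmb8 (chr17:34197945-34198244, + strand) and Psmb9 (chr17:34187281-34187580, - strand), the constitutive Psmb5 (chr14:54617946-54618245, - strand) and Psmb6 (chr11:70525107-70525406, + strand), and the base ATPase Psmc2 (chr5:21785025-21785324, + strand) as an example with an ETS match. Each is given 5′ to 3′ on the gene's strand, with capitals for matches of the first 4 motifs: GAS in Psmb8, ARE in Psmb5 and Psmb6, ETS on the opposite strand in Psmc2, and none in Psmb9.
Psmb8: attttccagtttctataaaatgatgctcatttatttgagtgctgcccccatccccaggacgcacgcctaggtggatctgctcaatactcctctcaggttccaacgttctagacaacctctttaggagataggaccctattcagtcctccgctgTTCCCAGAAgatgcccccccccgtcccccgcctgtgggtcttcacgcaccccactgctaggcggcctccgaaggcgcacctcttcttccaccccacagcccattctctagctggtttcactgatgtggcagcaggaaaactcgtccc
Psmb9: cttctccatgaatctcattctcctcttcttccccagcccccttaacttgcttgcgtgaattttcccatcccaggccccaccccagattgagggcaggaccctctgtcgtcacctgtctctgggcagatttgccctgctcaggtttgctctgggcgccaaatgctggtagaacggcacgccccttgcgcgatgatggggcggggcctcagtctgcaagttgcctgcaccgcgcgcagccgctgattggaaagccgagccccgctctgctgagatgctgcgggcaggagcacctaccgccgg
Psmb5: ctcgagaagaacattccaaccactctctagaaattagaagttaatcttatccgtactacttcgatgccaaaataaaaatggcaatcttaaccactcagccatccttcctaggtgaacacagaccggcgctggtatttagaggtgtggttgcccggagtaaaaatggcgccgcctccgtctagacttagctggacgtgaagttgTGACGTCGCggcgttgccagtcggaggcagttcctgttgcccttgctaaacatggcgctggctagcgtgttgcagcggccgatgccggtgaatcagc
Psmb6: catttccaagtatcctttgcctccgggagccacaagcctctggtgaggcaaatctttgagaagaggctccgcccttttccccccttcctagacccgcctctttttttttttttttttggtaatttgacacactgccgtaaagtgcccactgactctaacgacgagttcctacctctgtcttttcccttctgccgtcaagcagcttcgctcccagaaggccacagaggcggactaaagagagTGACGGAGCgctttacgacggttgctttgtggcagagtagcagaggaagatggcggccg
Psmc2: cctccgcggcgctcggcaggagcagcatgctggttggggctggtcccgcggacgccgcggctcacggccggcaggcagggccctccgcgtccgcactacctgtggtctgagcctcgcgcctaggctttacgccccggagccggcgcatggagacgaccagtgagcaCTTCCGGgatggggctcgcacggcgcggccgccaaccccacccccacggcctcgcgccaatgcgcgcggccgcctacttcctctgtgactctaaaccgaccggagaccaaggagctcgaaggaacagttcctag

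The GAS match of Psmb8 begins 97 bases before the start, the ARE match of Psmb5 47 bases before it and that of Psmb6 9 bases before it. Psmb10, the other inducible subunit, had a window, not printed here, without a match of any motif searched. The ARE letters occur in 6 of the 42 genes (14.3%), against 14.8% of 17492 protein-coding genes with such a window. The ETS letters occur in 16 (38.1%) against 12.9%, the ISRE letters in 5 (11.9%) against 3.94%, the GAS letters in 3 (7.14%) against 8.92% and CCAAT in 16 (38.1%) against 42.3%. A match is a run of letters and not a shown binding site. Of the 16 genes with an ETS match, 9 encode subunits of the 19S cap (Psmc1, Psmc2, Psmc6, Psmd2, Psmd4, Psmd6, Psmd11, Psmd12 and Psmd13), and those with an ARE match are Psmb5, Psmb6, Psmc6, Psmd9, Psmd12 and Psme4.

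The 19S base, the ring of ATPases with its scaffold, summed to 644 ± 651 TPM in old cells and 568 ± 504 TPM in young cells over its 9 genes. The lowest, median and highest cell had 7.98, 478 and 3740 TPM in old and 9.35, 424 and 2651 TPM in young. The log2 ratio was 0.18, and the kinds of runs disagreed, with -0.28 in the low and 0.59 in the high kind. Of the 6 ATPases, Psmc4 (Rpt3) was the highest, at 111 ± 239 TPM in old cells (median 4.94, highest 1055) and 84.5 ± 154 TPM in young cells (median 9.78, highest 807), a log2 ratio of 0.38 (0.23 low, -0.24 high) and a difference of mean log2(TPM + 1) of -0.19. Psmc3 (Rpt5) was the lowest, at 44.2 ± 104 TPM (median 1.64) in old and 61.7 ± 155 TPM (median 4.68) in young cells, with -0.47 in all cells, -1.23 in the low and 0.51 in the high kind. Psmc1, Psmc2, Psmc5 and Psmc6 lay between -0.07 and 0.35. Psmc1 (-1.04 low, 0.84 high), Psmc2 (-0.71 low, 0.70 high) and Psmc6 (-0.12 low, 0.52 high) were below 0 in the low and above 0 in the high kind. The ubiquitin receptor Psmd4 (Rpn10) averaged 47.2 ± 92.5 TPM in old cells and 30.9 ± 61.5 TPM in young cells (log2 ratio 0.60, or 0.16 low and 1.03 high), but its median was 0.522 TPM in old against 4.16 TPM in young cells and it was detected in 46.4% against 58.0% of cells. The scaffolds Psmd2 (Rpn1) and Psmd1 (Rpn2) were at 0.15 and 0.42, and at -0.29 and -0.26 by the difference of mean log2(TPM + 1). Psmd2 stood at 63.1 ± 130 TPM in old and 56.7 ± 95.2 TPM in young cells, with -0.56 in the low and 0.85 in the high kind.

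By the ratio of means over all cells, 3 lid genes were lower in old cells by 1.5-fold or more, and these differences were smaller in the high kind of runs. The 8 genes of the lid summed to 336 ± 337 TPM in old cells (lowest 2.05, median 218, highest 1468) and 361 ± 331 TPM in young cells (lowest 1.70, median 271, highest 1762), a log2 ratio of -0.10 (-0.18 in both kinds). Over all cells no lid gene was higher in old cells by 1.5-fold and 3 were lower, against 16.8% and 26.4% of all genes. In the low kind 2 were higher and 3 lower, against 23.8% and 34.5% of all genes. In the high kind all 8 lay within 1.5-fold, where 21.9% of all genes were higher and 32.8% lower by that much. Psmd13 (Rpn9), a lid scaffold, averaged 8.03 ± 27.4 TPM in old cells (median 0, highest 152) and 21.9 ± 83.1 TPM in young cells (median 0.509, highest 846). Its log2 ratio was -1.34, with -2.16 in the low and -0.42 in the high kind, and -0.29 without young cells 1 to 39. It was detected in 29.0% of old cells (18.7 to 41.2%) and 46.4% of young cells (37.9 to 55.1%). Psmd8 (Rpn12), the last subunit to join the lid, averaged 22.7 ± 45.3 TPM in old cells (median 2.36, highest 264) and 54.2 ± 168 TPM in young cells (median 3.95, highest 1648). Its log2 ratio was -1.22 (-1.89 low, -0.55 high), and 22.0% of its young total came from 1 cell. Psmd3 (Rpn3) averaged 6.30 ± 12.7 and 12.2 ± 37.0 TPM (-0.85, or -1.36 low and -0.40 high). Its medians were close, at 0.278 TPM in old and 0.394 TPM in young cells. Psmd6 (Rpn7), the most abundant lid gene, stood at 89.6 ± 154 TPM in old and 92.0 ± 153 TPM in young cells (-0.04, or -0.08 low and -0.12 high). Psmd14 (Rpn11), the enzyme that cuts off the ubiquitin chain, was at -0.08 (0.25 low, -0.09 high), and Psmd7, Psmd11 and Psmd12 lay between 0.07 and 0.49. Psmd7 (0.80 low, -0.10 high) and Psmd12 (0.64 low, -0.29 high) differed in sign between the kinds, and Psmd11 lay below 0 in both (-0.11 low, -0.01 high).

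**Figure D4:**
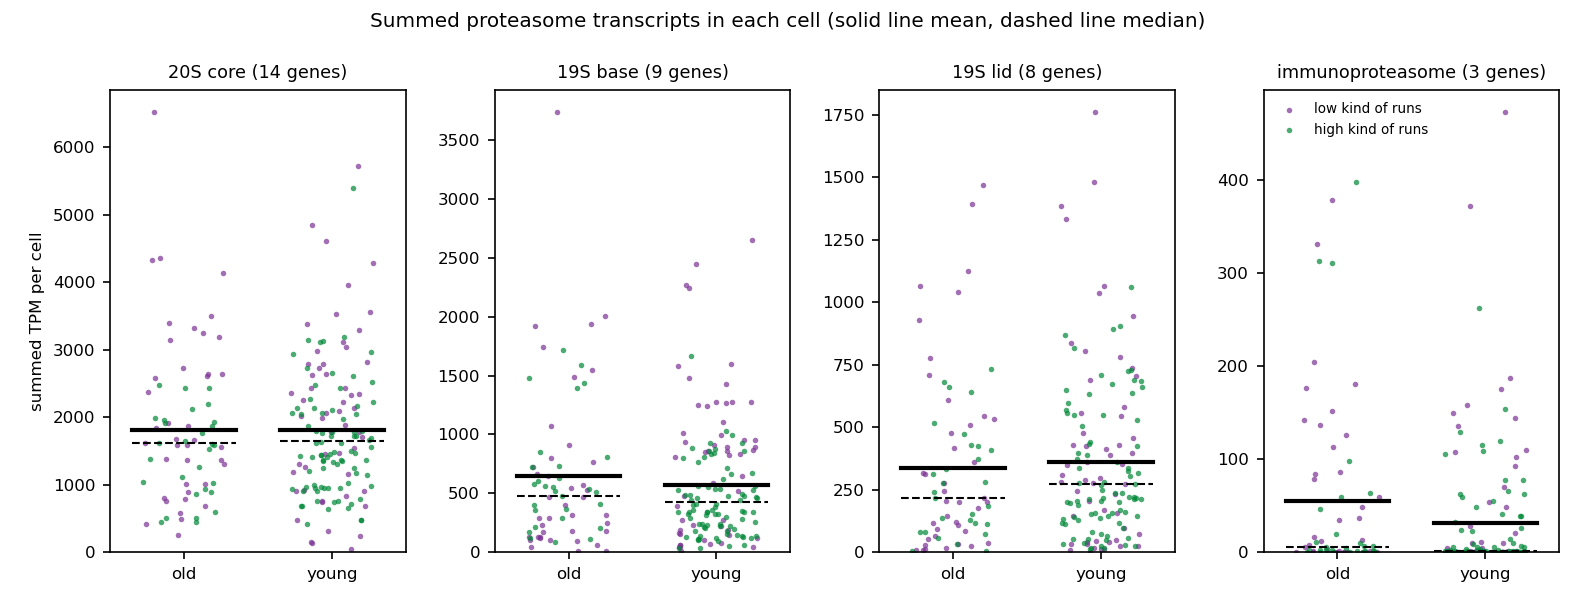
Summed TPM per cell of the 20S core, 19S base, 19S lid and inducible subunits, old cells left of young cells in each panel, with purple points for cells of the low kind and green for the high kind of runs. Solid lines (means) of the core stand at 1812 and 1801 TPM; those of the inducible subunits, at 54.9 and 31.0 TPM, are set by a minority of cells.

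Among the activators that cap the core in place of 19S, partners of 1 ring had ratios of means of opposite sign. Psme1 and Psme2 form the interferon-inducible PA28 ring. Psme1 averaged 24.7 ± 63.6 TPM in old cells (median 4.22, highest 377) and 52.6 ± 164 TPM in young cells (median 6.85, highest 1248), a log2 ratio of -1.06 (-1.59 low, -0.58 high), or -0.33 without young cells 1 to 39. Psme2 averaged 157 ± 242 TPM in old cells (median 45.3, highest 1351) and 121 ± 158 TPM in young cells (median 49.9, highest 951), a log2 ratio of 0.37 (0.24 low, 0.46 high). By the difference of mean log2(TPM + 1) both lay below 0, Psme1 at -0.69 and Psme2 at -0.04. Summed, the pair gave 182 ± 246 TPM in old and 174 ± 233 TPM in young cells (0.07, or -0.22 low and 0.28 high). Psme3, the nuclear activator PA28 gamma, averaged 11.9 ± 34.7 and 7.24 ± 18.3 TPM (0.65, or 0.69 low and 0.15 high). Its medians were 0.198 TPM in old and 0.290 TPM in young cells. Psme4 (PA200) was at 0.20 (1.04 low, -0.08 high) and the core inhibitor Psmf1 (PI31) at 0.09.

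The assembly chaperones were low, and their sum was higher in old cells. Of the 7, 4 were higher by 1.5-fold and 1 was lower over all cells, against 16.8% and 26.4% of all genes. In the low kind 3 of 6 measured were higher and 2 lower, against 23.8% and 34.5% of all genes. In the high kind 3 of 7 were higher and 2 lower, against 21.9% and 32.8% of all genes. On the scale of mean log2(TPM + 1) their median was -0.024. Their sum was 134 ± 177 TPM in old cells (median 63.6) and 98.1 ± 163 TPM in young cells (median 44.3), a log2 ratio of 0.45 (0.49 in both kinds). The run means of this sum overlapped, at 88.9 to 162 TPM in old runs and 19.0 to 116 TPM in young runs. In the low kind its run medians were 9.27 TPM (159 to 190) and 66.3 TPM (200 to 207) in old cells. In young cells they were 22.9 TPM (1 to 39) and 11.0 TPM (40 to 54). Psmg3 (PAC3), which helps to build the alpha ring, averaged 33.9 ± 89.1 TPM in old cells (highest 511) and 14.7 ± 57.4 TPM in young cells (highest 418), with a median of 0 at both ages. Its log2 ratio was 1.15 (1.45 low, 0.97 high) and ranged from 0.66 to 1.45 over all alternative settings. It was detected in 30.4% of old cells (19.9 to 42.7%) and 21.0% of young cells (14.5 to 28.8%). Its partner Psmg4 (PAC4) averaged 22.9 ± 77.2 and 13.9 ± 44.2 TPM (0.68), with 1.61 in the low and -1.26 in the high kind. The other pair, Psmg1 (PAC1) and Psmg2 (PAC2), were at -1.12 (-1.41 low, -0.69 high) and 0.08 (-1.08 low, 0.98 high). Psmg1 was detected in 13.0% of old and 22.5% of young cells, and 56.6% of its old total came from 1 cell. Psmg2 stood at 37.8 ± 100.4 TPM in old and 35.7 ± 108 TPM in young cells. Of the base chaperones, Psmd10 (gankyrin) stood at 14.5 ± 49.9 TPM in old and 12.4 ± 34.3 TPM in young cells (0.21, or -0.11 low and 0.58 high). Psmd5 was at 1.06 (2.15 low, -0.13 high) with 58.4% of its old total in 1 cell. Psmd9 averaged 3.30 ± 15.6 TPM in old and 1.57 ± 4.92 TPM in young cells (0.74, or 0.17 low and 1.28 high).

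The symbol rule also took in 2 genes that are not subunits, and both were lower in old cells. Psme3ip1, a partner of Psme3, averaged 8.13 ± 24.5 TPM in old cells (highest 107) and 26.4 ± 86.8 TPM in young cells (highest 663), a log2 ratio of -1.58 (-1.90 low, -1.22 high). It was detected in 17.4% of old cells (9.32 to 28.4%) and 34.1% of young cells (26.2 to 42.6%). Psmc3ip, a factor of meiotic recombination, averaged 0.00607 ± 0.0504 TPM in old and 3.55 ± 35.3 TPM in young cells. Its log2 ratio was -2.18 (-3.28 low, -0.29 high). It reached TPM 1 in 0 of 69 old cells and 5.80% of young cells, and 84.2% of its young total came from 1 cell. The spans of 8 of the 50 genes meet another protein-coding gene, among them Psme3ip1 (Rspry1), Psme1 (Emc9) and Psma4. The strand handling of the libraries is not given in the sources used here, so reads from a stretch that both genes share may not be told apart. Only spans were compared, and whether exons overlap was not looked at.

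Single cells rarely held the complete set of transcripts. Of the 31 core, base and lid genes, the lowest, median and highest cell had 10, 22 and 30 detected in old cells and 8, 22 and 31 in young cells. The number followed how many genes of any kind were detected, with Spearman's rho of 0.74 over 69 old and 0.85 over 138 young cells, which share runs and depth. Within runs of 15 cells or more it lay between 0.21 and 0.74 in old and between 0.60 and 0.77 in young runs. Between the summed levels the link was looser: core and base had a rho of 0.42 in old and 0.43 in young cells, and core and lid 0.31 and 0.43. Within such runs core and base lay at 0.36 in both old runs and between 0.03 and 0.57 in the 4 young runs, and core and lid between -0.17 and 0.37 in old and between -0.36 and 0.57 in young runs. Pairs of single subunits barely went together. Over the 465 pairs the median rho was 0.12 in old and 0.14 in young cells, with Psmd4 and Psmd14 (0.43) the highest pair in old and Psma2 and Psmd1 (0.44) in young cells. Weak correlations are usual in sparse counts. Across 49 genes the mean TPM and the share of cells with the gene detected ranked together, with a rho of 0.92 in old and 0.91 in young cells.

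**Figure D5:**
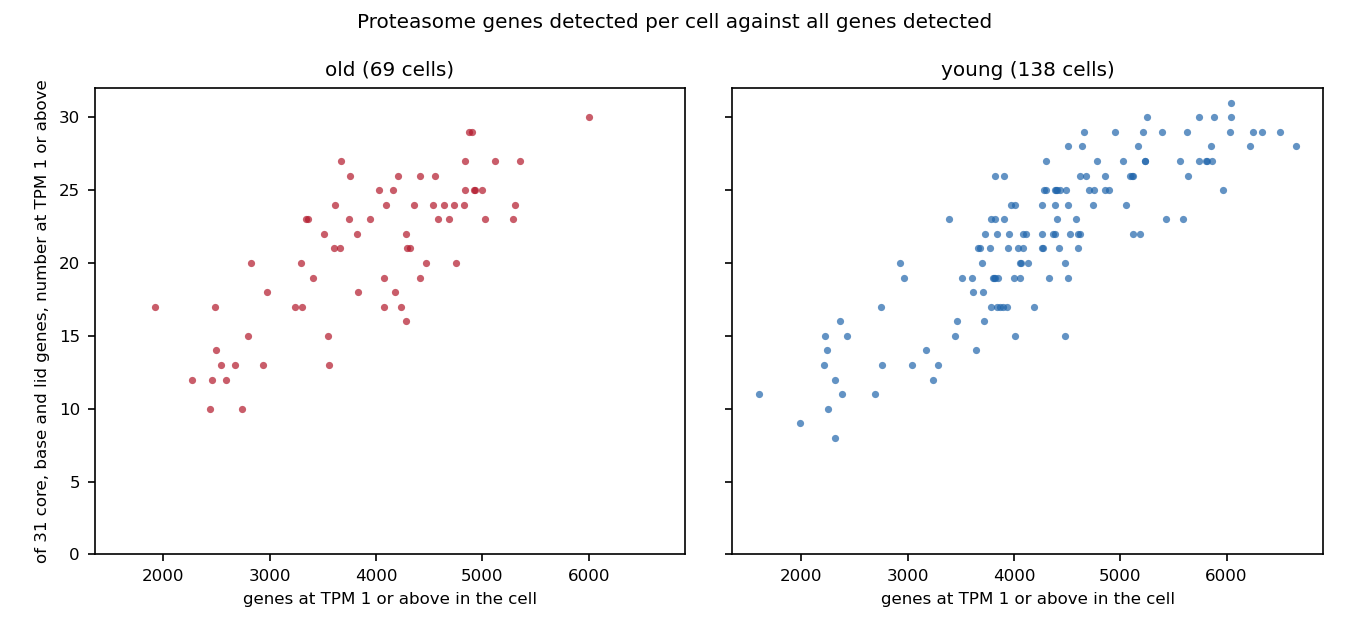
Number of the 31 core, base and lid genes at TPM 1 or above in each cell against all genes at TPM 1 or above, old cells left and young cells right. Cells with fewer genes detected hold fewer proteasome genes at both ages, from 10 to 30 in old and from 8 to 31 in young cells.

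Around the particle, Ubb, a polyubiquitin gene, averaged 4646 ± 2374 TPM in old and 4277 ± 2598 TPM in young cells, a log2 ratio of 0.12 (-0.17 low, 0.40 high). Rps27a, which fuses ubiquitin to a ribosomal protein, was at -0.37. The activating enzyme Uba1 averaged 45.4 ± 75.3 TPM in old and 30.5 ± 40.8 TPM in young cells (0.56, or 0.88 low and 0.04 high). Of the 16 ubiquitin-activating and E2 genes 3 were higher and 3 lower in old cells by 1.5-fold, against 16.8% and 26.4% of all genes, with a median of 0.10. In the low kind 4 of 15 measured were higher and 2 lower, against 23.8% and 34.5% of all genes. In the high kind 4 of 16 were higher and 5 lower, against 21.9% and 32.8% of all genes.

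Of 17 proteasome-bound factors, 2 were higher by 1.5-fold (Akirin2 at 1.13 and Uchl5 at 0.73) and none was lower over all cells, against 16.8% and 26.4% of all genes, with a median of 0.25. In the low kind 4 were higher and 2 lower, against 23.8% and 34.5% of all genes. In the high kind 4 were higher and 3 lower, against 21.9% and 32.8% of all genes. Uchl5 was at 0.91 in the low and -0.16 in the high kind, and Akirin2 was detected in 21.7% of old and 26.1% of young cells, with a difference of mean log2(TPM + 1) of 0.02. The subunits that the symbol rule misses are among them: Sem1, a lid subunit, averaged 202 ± 234 TPM in old and 256 ± 516 TPM in young cells (-0.34), and Adrm1, a ubiquitin receptor, 16.1 ± 34.1 and 13.1 ± 29.0 TPM (0.28). The core maturation factor Pomp averaged 204 ± 236 and 166 ± 241 TPM (0.30). Over all cells the 6 regulators of proteasome genes lay below 0, while 43.9% of all genes lay above it. Of the 6, 1 (Maff) was lower by 1.5-fold, against 26.4% of all genes. Their median was -0.42, against -0.10 over all genes. Mafk was higher by 1.5-fold in the low kind (0.63), against -0.48 in the high kind. Nfe2l1, the factor that raises proteasome genes when the particle is blocked, averaged 14.5 ± 25.9 TPM in old and 19.5 ± 33.7 TPM in young cells (-0.41, or -0.06 low and -1.13 high). Nfe2l2 averaged 21.5 ± 72.7 TPM in old and 29.6 ± 191 TPM in young cells (-0.44), but 54.0% of its young total came from 1 cell, and its difference of mean log2(TPM + 1) was -0.04. Of 19 genes of degradation from the endoplasmic reticulum, 1 (Derl3, with 13.1 TPM in old and 5.99 TPM in young cells) was higher and 3 (Edem1 at -1.19, Ngly1 at -1.13 and Syvn1 at -0.78) were lower by 1.5-fold over all cells, against 16.8% and 26.4% of all genes, with a median of -0.20. By kind, 5 were higher and 6 lower in the low kind, against 23.8% and 34.5% of all genes. In the high kind 2 were higher and 8 lower, against 21.9% and 32.8% of all genes. Derl3 was detected in 13.0% of old and 16.7% of young cells. Edem1 was at -0.18 in the low and -2.53 in the high kind, and Ngly1, with 40.8% of its young total in 1 cell, at -2.92 in the low and 0.52 in the high kind. Vcp, the ATPase that pulls substrates out of the membrane, averaged 37.3 ± 44.9 TPM in old and 53.8 ± 77.6 TPM in young cells, at -0.52 in all cells, -0.50 in the low and -0.67 in the high kind.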

How the data were processed

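Per the labels' protocols, the cells were caught on a Fluidigm C1 chip, cDNA came from SMARTer chemistry and libraries from Nextera XT. The submitters' processing notes name GRCm38 (mm10), CASAVA 1.8.2 and FastQC. No aligner, counting program or annotation is named in the sources used here. TPM values of the 207 cells were deposited as 1 table, whose columns were matched to the samples by title; 0 columns were left unused. Each column sums to 1000000, so depth is unknown and an abundant transcript lowers all others.

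Rows are NCBI Gene numbers, of which 39725 of 44448 matched a symbol in a RefSeq table of GRCm38.p6. No cell was left out, and no doublet caller or clustering was run. Ages were compared by the log2 ratio of their mean TPM, with a pseudocount of 1 added to each, which makes differences of low genes look smaller, over genes whose mean TPM reached 1 at one age or both. Each age is 1 sample, so no p-value was computed, and 1.5-fold describes size only. The ratio was tested on simulated data in which the changed genes had a mean TPM of 10 or above; a first draw that included lower genes had given falls smaller than those put in. Shares of cells at TPM 1 or above have 95% Clopper-Pearson intervals; for Psmb11, at 0 cells, the limit that a count of 0 allows (3 cells) is given.

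Members and gene lists were chosen with earlier results of these data known, as were the runs of cell numbers. Full values are given for the 6 cutting subunits, the highest and lowest gene of each role by mean TPM, and the 6 highest and 6 lowest ratios among genes whose mean TPM reached 10 and that were detected in 25% or more of cells at the age where they were higher; Ubb and other genes around the proteasome were also fixed by name, and some of these are not reported here. Psmb1, Psmb3, Psma7, Psmd5 and others outside that rule are given by ratio or count. Alternatives were another scale, pseudocount or filter, TPM rescaled without insulin and mitochondrial genes, cells with 3000 genes or more, cells without other islet hormones, each kind of run, and leaving out each run or the highest cell. Python 3.11.15, numpy 2.4.6, pandas 2.3.3 and scipy 1.17.1 were used.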

Additional observations from a re-analysis of the deposited data

How the results depend on the processing

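Every alternative kept the 20S core, base and lid sums within 1.5-fold of their main log2 ratio and the inducible share of the cutting subunits within 1.5 times its main value. The count of genes higher in old cells by 1.5-fold, 7 in all cells, was 3 on the scale of mean log2(TPM + 1), 3 with a pseudocount of 10, 3 without the highest cell of each age, 11 with rescaled TPM and 15 without young cells 1 to 39. The count of lower genes, 9 in all cells, was 5 with a pseudocount of 10, 14 in the low kind of runs and 4 without young cells 1 to 39. The median of the inducible subunits, 0.46, was 1.32 without young cells 1 to 39 and 1.29 without young cells 87 to 138. The median of the assembly chaperones, 0.68, was -0.024 on the scale of mean log2(TPM + 1) and -0.068 without old cells 139 to 158. On that scale 19 of the 48 genes had the sign opposite to their ratio of means, among them, of those past 1.5-fold, Psmd4 (-0.15), Psme3 (-0.021), Psmg4 (-0.049) and Psmd9 (-0.087). They turned for Psme3 (-0.39) and Psmg4 (-0.49) without old cells 159 to 190, for Psmg4 in the high kind (-1.26), for Psmd9 without old cells 139 to 158 (-0.53) and for Psmb5 without young cells 1 to 39 (0.095). The cause was not tested. No paired analysis was possible because the labels give the cells of each age no shared numbers and name no animal. The unknown depth limits what a value of 0 shows in any cell.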
